A study of Mus musculus with 8 samples.

Results

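The regions described here are places in the mouse genome where ZFP281 was found in primary tumour (PT) spheres and in early lesion (EL) spheres alike, away from every protein-coding gene. Summits, the single bases that the authors' peak calling put at the top of each ZFP281 peak, were taken from the lists of 6 libraries on chromosomes 1 to 19, X and Y, and summits at most 200 bp apart were merged. A region was kept when it had a summit in at least 2 of 3 PT and at least 2 of 3 EL libraries, lay over 5 kb from every boundary of a RefSeq protein-coding gene (mm10) and lay inside no such gene. This left 423 of 19317 regions (2.19%). They made up 14.66% of the 2886 regions that met the same rule on libraries, whatever their position, and 9.202% of the 4597 regions of any library that met the rule on distance.

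The libraries came from chromatin immunoprecipitation sequencing (ChIP-seq) of ZFP281 in spheres of MMTV-HER2/Neu mice on the FvB background, a model in which the MMTV promoter drives the HER2/Neu oncogene in the mammary gland. The 3 PT libraries came from animals over 20 weeks of age with tumours, and the 3 EL libraries from animals of 14 to 18 weeks in which no tumour could be felt. Digested tumours or mammary glands were grown for 7 days as mammospheres without attachment, and 1 input per group, not used here, was also made. Both groups therefore carried the oncogene, and no group without it was included. The tissue label reads breast tumor for PT and mammary lung for EL, while the protocol names mammary glands, and both groups carry the cell type label breast cancer cells. ChIP-seq does not measure expression, so these labels were not tested. The libraries are called biological replicates, without the animals behind each, and p-values were computed over the libraries. Distance to genes, place at a non-coding gene and the nearest gene are fixed for each region, and most regions recur across libraries. For those measures p-values do not give the spread of binding between replicates.

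ZFP281 is a zinc finger transcription factor that binds G-rich DNA and is known from embryonic stem cells, where it both activates and represses genes and works with chromatin-modifying complexes. Binding away from protein-coding genes can fall on enhancers, on insulators or on the start sites of non-coding genes. MicroRNAs (miRNAs) are cut from longer primary transcripts, whose start can lie kilobases upstream of the hairpin, and they pair with target mRNAs mainly through the seed, bases 2 to 8 of the mature strand.

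Among the 423 regions, 16 lay within 10 kb of a gene that RefSeq annotates as a miRNA, and 35 such genes lay within that distance of them. The set was chosen after its values were seen. Mature sequences of the best-known of these miRNAs are shown because several regions stood beside clusters that share a seed. They are RefSeq sequences (GRCm38.p6), 5′ to 3′, with the seed in capitals. The let-7 family, known for holding back proliferation and stem cell programmes, was represented by 5 hairpins at 2 regions, all with the seed GAGGUAG:
mmu-let-7a-5p: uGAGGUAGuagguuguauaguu
mmu-let-7b-5p: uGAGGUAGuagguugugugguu
mmu-let-7c-5p: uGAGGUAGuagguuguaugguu
mmu-let-7d-5p: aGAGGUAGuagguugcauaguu
mmu-let-7f-5p: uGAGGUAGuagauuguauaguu

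The oncogenic cluster from Mir17 to Mir92-1, a known target of MYC, gave 6 hairpins downstream of 1 region. Its members miR-17 and miR-20a share the seed AAAGUGC, and miR-19a and miR-19b share GUGCAAA:
mmu-miR-17-5p: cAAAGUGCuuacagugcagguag
mmu-miR-20a-5p: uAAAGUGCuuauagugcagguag
mmu-miR-18a-5p: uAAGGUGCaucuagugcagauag
mmu-miR-19a-3p: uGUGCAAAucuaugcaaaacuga
mmu-miR-19b-3p: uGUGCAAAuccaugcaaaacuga
mmu-miR-92a-3p: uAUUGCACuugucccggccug

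Other miRNAs next to these regions are known from the p53 response (miR-34a), from epithelial tissues and cancer (miR-183, miR-96 and miR-182), from growth arrest (miR-22) and from the cluster of miR-23a, miR-27a and miR-24:
mmu-miR-34a-5p: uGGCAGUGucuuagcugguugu
mmu-miR-183-5p: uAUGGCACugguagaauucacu
mmu-miR-96-5p: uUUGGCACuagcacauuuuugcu
mmu-miR-182-5p: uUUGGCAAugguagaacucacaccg
mmu-miR-22-3p: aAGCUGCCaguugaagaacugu
mmu-miR-23a-3p: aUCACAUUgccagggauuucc
mmu-miR-27a-3p: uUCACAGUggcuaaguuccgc
mmu-miR-24-3p: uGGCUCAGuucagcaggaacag

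Long non-coding RNA (lncRNA) genes gave the promoters that the data bear on. RefSeq windows of 300 bases (GRCm38.p6; 250 bases before to 50 after a listed start) held 18 of the 423 regions, in 20 windows of 19 genes, all of them lncRNA genes. The windows of 3 of these lncRNA genes are printed on the strand of the gene. The 18 regions were ranked by their lowest score percentile over the lists, a measure explained below. That of Dleu2, the host of miR-15a and miR-16-1, held the region ranked first. That of Chaserr, a lncRNA known to restrain the neighbouring chromatin remodeller gene Chd2, held the next in this ranking. That of Gm34056 held the region nearest to Zfp281 itself. Capitals mark GGGGAGGG, a G-rich motif of the kind ZFP281 is known to bind, searched on both strands (on the other strand CCCTCCCC), and the windows lie at chr14:61682324-61682623, chr7:73558346-73558645 and chr1:136662196-136662495, each on the minus strand:
Dleu2: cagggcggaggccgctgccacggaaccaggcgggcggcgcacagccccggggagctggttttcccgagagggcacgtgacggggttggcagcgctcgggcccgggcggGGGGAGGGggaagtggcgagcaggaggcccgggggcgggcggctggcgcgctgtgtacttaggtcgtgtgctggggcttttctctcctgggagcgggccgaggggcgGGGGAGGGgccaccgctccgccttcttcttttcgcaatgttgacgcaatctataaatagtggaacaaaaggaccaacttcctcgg
Chaserr: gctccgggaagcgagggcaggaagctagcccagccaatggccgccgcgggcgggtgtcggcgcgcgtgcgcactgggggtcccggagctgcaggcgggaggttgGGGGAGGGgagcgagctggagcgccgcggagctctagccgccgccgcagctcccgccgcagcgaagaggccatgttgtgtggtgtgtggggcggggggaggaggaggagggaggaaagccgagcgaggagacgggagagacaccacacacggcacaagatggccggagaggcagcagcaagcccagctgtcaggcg
Gm34056: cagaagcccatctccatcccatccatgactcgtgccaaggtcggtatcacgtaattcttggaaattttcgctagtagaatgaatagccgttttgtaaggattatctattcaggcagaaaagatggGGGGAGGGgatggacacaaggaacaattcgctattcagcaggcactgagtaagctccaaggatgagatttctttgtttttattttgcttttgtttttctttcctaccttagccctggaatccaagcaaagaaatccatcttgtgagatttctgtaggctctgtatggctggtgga

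The motif was present in 12 of the 20 windows that held one of the regions (60%). It was present in 355 of 649 windows that held a region shared at a protein-coding gene boundary (54.7%), in 7.974% of the 11588 windows of genes that are not protein-coding and in 10.77% of all 32851 windows. Median GC content of these 4 sets was 65.5%, 67.67%, 48.33% and 52.67%, in the same order. The Gm34056 window had the lowest GC content of the 20 windows, 43.33%, and still held the motif once. Among the 20 windows, those of Zmiz1os1 overlapped and held the same motif site, which is therefore counted more than once. The printed windows all held the motif. Those ranked next after Chaserr, of 1700096K18Rik, Gm14321 and Gm32287, did not. A match is a description of letters, and its part in binding was not tested.

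Of the 423 regions, 214 (50.59%) had a summit in all 6 libraries, 161 in 5 and 48 in 4. Shared regions at gene boundaries (within 1 kb of a boundary) were in all 6 libraries in 794 of 1334 cases (59.52%), and shared distal regions inside genes in 281 of 574 (48.95%). Of the 161 regions in 5 libraries, 47 lacked an EL summit and 114 lacked a PT summit. Without PT replicate 3 the rule left 273 regions. The regions were narrow, with a median width of 96 bp (17 to 376 bp), and each library had 1 summit in each region it reached. PT replicates 1, 2 and 3 held 319, 378 and 410 of the 423, and EL replicates 1, 2 and 3 held 405, 417 and 352. These were 11.01%, 9.38% and 6.796% of the 2897, 4030 and 6033 PT summits and 4.716%, 2.644% and 4.989% of the 8588, 15770 and 7055 EL summits, so the share was smaller in longer lists. The 95% Wilson interval, which covers counting error only, was 9.923% to 12.2% in PT replicate 1, the shortest list.

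Each summit carries the authors' score, read here from its values as the −log10 of a q-value, and the score percentile gives the share of the summits of the same list with a score at or below it (100 is the highest). Read depth is unknown, so percentiles rank summits within a list and are not amounts of binding. A lower summit and fewer cells carrying it cannot be told apart. The median percentile of the shared distal regions was 55.23, 60.79 and 70.25 in PT replicates 1, 2 and 3, and 73.25, 84.95 and 69.81 in EL replicates 1, 2 and 3. The other distal summits between genes, those not shared, had medians of 35.93, 34.04 and 35.06 in PT and 41.74, 42.44 and 39.06 in EL. The regions were chosen by the presence of summits in these same lists, so this gap and the scores of the regions, taken by themselves, are a description and carry no test.

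**Figure D1:**
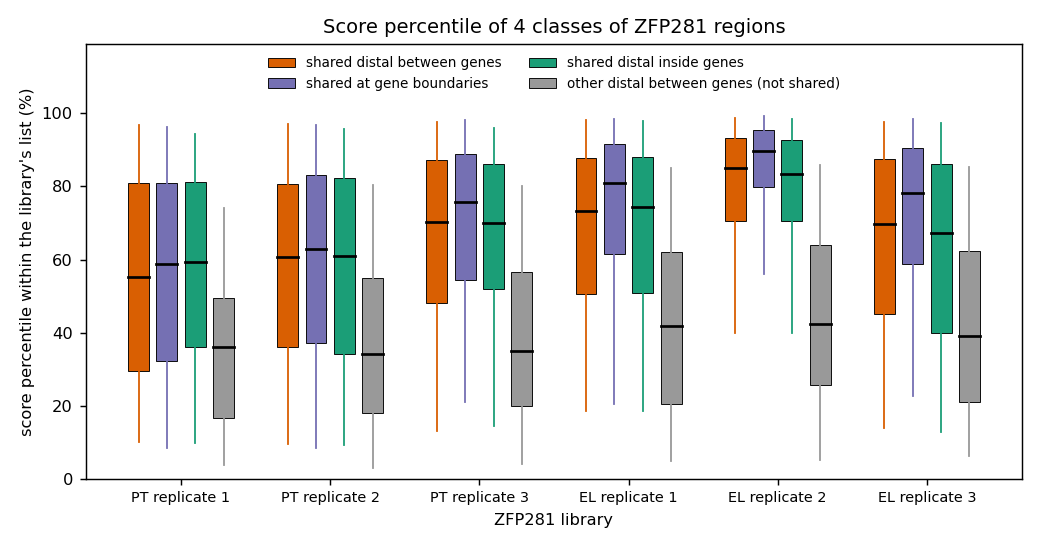
Score percentile (%) of 4 classes of ZFP281 regions in each of 3 PT and 3 EL libraries. Boxes span the quartiles, black lines are medians and thin lines run from the 5th to the 95th percentile of the regions. Shared distal regions between genes (median 55.23 to 84.95) sat below shared regions at gene boundaries (58.85 to 89.78) in all 6 libraries, close to shared distal regions inside genes, and above distal regions that were not shared.

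Set against other shared regions, which passed the same rule on libraries, the distal regions between genes had lower medians than those at gene boundaries. Medians used only libraries with a summit in the region, and the rule used that same presence for both classes. The boundary regions had medians of 58.85, 62.98 and 75.62 in PT and 80.89, 89.78 and 78.2 in EL, above the distal regions in 6 of 6 libraries. Since the same regions recur in the 6 libraries, these values are not independent. The mean difference, distal minus boundary, was -5.34 ± 2.36 percentile points (SD, n = 6 libraries; exact paired permutation p = 0.03125, two-sided, the smallest that 6 libraries allow; adjusted p = 0.0729 over 7 tests). It missed 0.05 after adjustment. Here and in the paired tests below, passing at the smallest p depends on how many of the other tests also reach it. The difference was -2.03 points at equal list lengths (exact paired permutation p = 0.2188, adjusted p = 0.306) and -1.45 points with scores of at least 10 (p = 0.4688, adjusted p = 0.547). Shared distal regions inside genes had medians of 59.27, 60.88 and 70.08 in PT and 74.3, 83.46 and 67.22 in EL. Their difference from the regions between genes, -0.156 ± 2.29 points, lay within the spread between libraries (SD, n = 6; exact paired permutation p = 0.9375, adjusted p = 0.938), and its sign turned in 12 of 19 alternatives. The gap to boundary regions was -3.73 ± 1.60 points in PT and -6.96 ± 1.87 in EL (SD, n = 3 each), a PT minus EL difference of 3.23 that did not pass (exact permutation p = 0.2, two-sided, adjusted p = 0.28; 3 against 3 libraries cannot go below 0.1). It was 1.76 without EL replicate 1 and 5.92 without PT replicate 3.

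The strongest of the regions ranked near the top of every list. The 10 with the highest lowest percentile over the 6 lists are described as leading, a choice made from the scores themselves. First was a region 47.81 kb from Atf7ip, a cofactor of the histone methyltransferase SETDB1, on chromosome 6 from 136470923 to 136470983, inside the lncRNA gene Gm36897. Its percentiles were 99.9, 99.7 and 99.9 in PT and 99.98, 99.96 and 99.82 in EL, with scores of 127.5, 102.4 and 165.7 in PT and 166.5, 260.3 and 114.5 in EL. It lay among 3 such regions within 50 kb of each other in the gap between E330021D16Rik and Atf7ip. The next were 28.78 kb from Skor1, a corepressor of the SKI family (chromosome 9, 63109345 to 63109382), 32.29 kb from Lrrc74a (chromosome 12, 86801314 to 86801357) and 35.01 kb from Acot11, an acyl-CoA thioesterase (chromosome 4, 106840013 to 106840091). The Acot11 region lay inside the lncRNA gene Gm31125, 70 bp from a boundary of that gene. It had percentiles of 99.38, 98.98 and 98.77 in PT and 99.23, 99.65 and 99.15 in EL. All 3 of these ranked above 98 in every list.

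Further leading regions lay 33.78 kb from the forkhead factor gene Foxk1 (chromosome 5, 142367700 to 142367720), 50.97 kb from Mcfd2, a cargo receptor subunit of the secretory pathway (chromosome 17, 87203410 to 87203478), and 24.83 kb from the inositol phosphatase gene Inpp5a (chromosome 7, 139364183 to 139364245). The Foxk1 region was also the tightest of the 10, with its 6 summits within 20 bp of each other. The Dleu2 region, on chromosome 14 from 61682403 to 61682509 and 69.57 kb from Kcnrg, lay 30 bp from the annotated end of Dleu2 that holds its start, with percentiles of 98.34, 98.44 and 97.45 in PT and 97.62, 98.38 and 97 in EL. The let-7 region 31.78 kb from Ptpdc1 (chromosome 13, 48546044 to 48546088) lay 7772 bp upstream of the Mirlet7a-1 hairpin, with percentiles of 94.96, 99.26 and 98.99 in PT and 99.67, 99.78 and 99.73 in EL. The last leading region, on chromosome 17 from 39848381 to 39848430, lay 102.1 kb from Esp38 and 179 bp from Rn18s-rs5, an 18S ribosomal RNA pseudogene. It is reported as uncertain, since reads of repeated ribosomal DNA cannot be placed surely, and 2 further regions lay at the same copy.

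**Figure D2:**
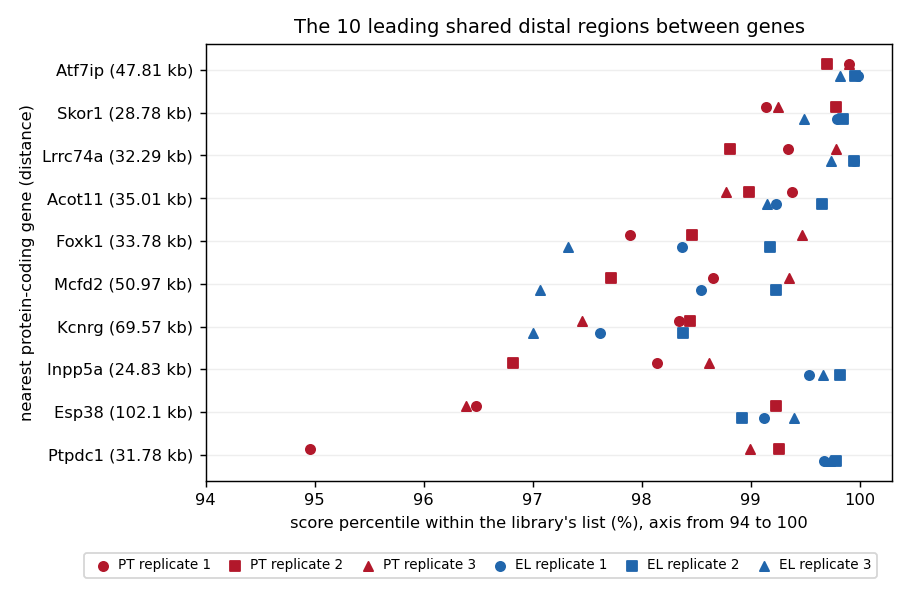
Score percentile (%) of the 10 leading shared distal regions in each library, named by nearest protein-coding gene with the distance to it, on an axis from 94 to 100. Red marks are PT libraries, blue marks are EL libraries. The lowest of the 60 values is 94.96, PT replicate 1 at the region near Ptpdc1.

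The distance to protein-coding genes varied widely. The median was 22.77 kb, with quartiles of 11.03 and 52.75 kb, and 95 of the 423 regions (22.46%) lay within 10 kb, 112 (26.48%) over 50 kb and 49 (11.58%) over 100 kb. They lay nearest to 370 different genes. The other distal regions between genes lay farther away, with a median of 33.08 kb and 21.13% over 100 kb. Library by library, the median distance of the shared regions was 23.34, 21.92 and 22.34 kb in PT and 22.88, 22.12 and 22.07 kb in EL. For the other distal summits it was 34.1, 27.83 and 29.04 kb in PT and 33.07, 33.28 and 31.1 kb in EL. The shared regions were nearer in 6 of 6 libraries, by -8.96 ± 2.19 kb on average (SD, n = 6; exact paired permutation p = 0.03125, two-sided, no smaller value being possible; adjusted p = 0.0729), which missed 0.05. The same regions recur in the 6 libraries, so these values are not independent. The other summits also had lower scores, and above the score percentile of 50 in each list the difference was -8.59 kb. It was -5.44 kb at equal list lengths.

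**Figure D3:**
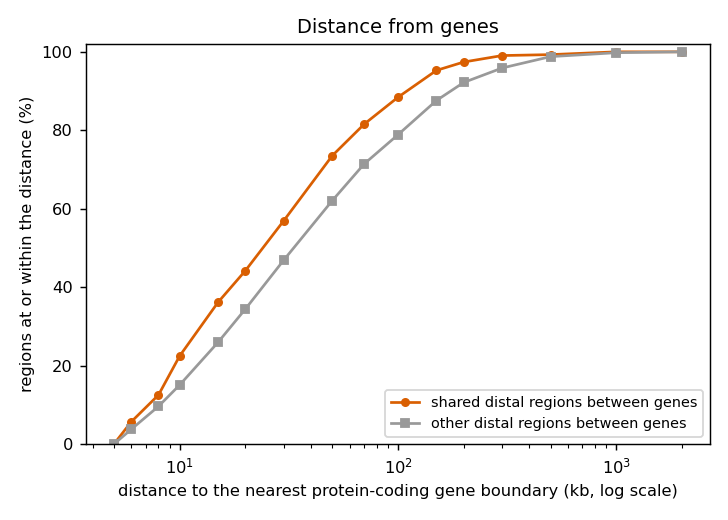
Cumulative share (%) of shared distal regions between genes (orange) and of the other distal regions between genes (grey) at or within a given distance (kb, log axis) of a protein-coding gene boundary. The orange curve lies above the grey one between 6 and 300 kb, with medians of 22.77 and 33.08 kb.

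The region farthest from any protein-coding gene lay 611.1 kb from Mef2c, the gene of a MADS-box transcription factor of muscle and neurons (chromosome 13, 82892912 to 82892961). It had percentiles of 31.07, 20.17 and 73.15 in PT and 13.83 and 47.93 in EL replicates 1 and 2, with no summit in EL replicate 3. Next came regions 584.1 kb from Rwdd3, 518.5 kb from the Wnt receptor gene Fzd8, 412.9 kb from Atp11b and 236.3 kb from the planar polarity gene Prickle1. The Atp11b region (chromosome 3, 35341030 to 35341132) lay in the gap that has the pluripotency factor gene Sox2 on its other side, inside the lncRNA gene Gm38512. The Fzd8 region was the only one of the 5 found in all 6 libraries, with 76.7, 88.29 and 82.55 in PT and 42.97, 73.05 and 48.21 in EL. At the other end, the 3 regions just over the limit of 5 kb lay 5.025 kb from Zfp503, 5.062 kb from Zfp608 and 5.131 kb from Ypel4. The nearest that missed it lay 4949 bp from the survival gene Mcl1, 4901 bp from Frmd8 and 4836 bp from the tight junction gene Cldn3, with lowest percentiles of 0.613, 75.28 and 22.23.

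Non-coding genes, which the rule did not use, lay at many of the regions. Of 423 regions, 157 (37.12%) lay inside or within 1 kb of an annotated gene that is not protein-coding, against a background of 31.5% over all 4597 distal regions between genes and 30.98% over those not shared. Of the 157, 149 were at a lncRNA gene, 6 at a pseudogene, 4 at a tRNA gene and 3 at a miRNA gene, some at more than 1 kind. Inside a non-coding gene lay 127. Per library the shares were 37.3%, 37.57% and 36.59% in PT and 37.78%, 37.17% and 38.64% in EL, against 34.03%, 30.25% and 30.72% of the other distal summits in PT and 33.8%, 30.82% and 34.42% in EL. The shared regions were higher in 6 of 6 libraries, by 5.17 ± 1.58 percentage points (SD, n = 6; exact paired permutation p = 0.03125, two-sided, adjusted p = 0.0729), which missed 0.05. As with the distance, the same regions recur in the 6 libraries, so these values are not independent. Above the score percentile of 50 in each list the difference was 4.10 points (exact paired permutation p = 0.1562, adjusted p = 0.273), and without EL replicate 2 it was 8.02 points.

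Several of these genes are well known. Besides Dleu2, Chaserr had a region 111 bp beyond the end that holds its start (chromosome 7, 73558506 to 73558557), with 94.2, 93.85 and 97.94 in PT and 99.65, 99.47 and 98.63 in EL, all 3 EL values above the PT values. One end of Pvt1, a lncRNA gene that neighbours Myc, was overlapped by a region (chromosome 15, 62037848 to 62037994), as was one end of Trp53cor1, the lincRNA-p21 gene next to the cell cycle inhibitor gene Cdkn1a (chromosome 17, 29079081 to 29079188). Only the summit of PT replicate 1 lay within Pvt1. Within Trp53cor1 lay the summits of PT replicates 1 and 2 and of EL replicate 2. The Cdkn1a region had 61.79, 79.01 and 85.89 in PT and 89.39, 94.08 and 88.41 in EL. Terc, the RNA template of telomerase, was overlapped by a region of chromosome 3 from 96414160 to 96414483, one of the 3 widest. Only the summit of PT replicate 2, at 96414483, lay within Terc, which spans 96414437 to 96414833. The region had 48.36 and 39.76 in PT replicates 2 and 3 and 68.58, 74.94 and 7.215 in EL. The others of the 3 widest lay near the Notch effector gene Hes1, with summits spread over 331 bp, and near Ace, over 375 bp. The region nearest to Zfp281 lay 31.9 kb from it, between Zfp281 and Nr5a2, on chromosome 1 from 136662295 to 136662390. It had no summit in PT replicate 1, percentiles of 58.83 and 71.62 in PT replicates 2 and 3, and 59.56, 65.58 and 38.11 in EL, so the groups overlapped.

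The promoter windows were kept because they held a region, which bounds the distance from summit to listed start. At Dleu2 the summits lay from 136 to 30 bases before it, with a median of 86, and at Chaserr from 162 to 111 before it, with a median of 138. At Gm34056 the median was 133 bases before the start. The lncRNA genes Gm14321 and Gm32287 run in opposite directions from 1 region between Cebpb, a C/EBP factor gene, and the phosphatase gene Ptpn1 (chromosome 2, 167777443 to 167777521). That region had 89.64, 92.06 and 96.27 in PT and 98.93, 98.85 and 96.36 in EL. At Zmiz1os1, antisense to Zmiz1, the region had 48.22, 69.93 and 59.21 in PT and 87.81, 90.29 and 77.32 in EL, and the groups did not overlap.

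Near miRNAs, 12 of the 16 regions were in all 6 libraries, against 50.59% of all 423. Some of the 16 lay at the same miRNA, as at Mir22 and at Mir23a, so they are not 16 separate loci. The share of regions within 10 kb of a miRNA gene was 3.783% of the 423 against 1.581% of the other distal regions between genes (66 of 4174), given as a description because the set was chosen after its values were seen. Per library it was 4.389%, 3.968% and 3.902% in PT and 3.951%, 3.837% and 3.693% in EL, against 1.571%, 1.961% and 1.438% of the other regions in PT and 1.631%, 1.451% and 1.987% in EL. The region upstream of Mir17 (chromosome 14, 115042399 to 115042506) lay 1165 bp before the first hairpin of the cluster, with 76.94, 89.58 and 90.63 in PT and 91.21, 96.94 and 91.98 in EL. All 3 EL values lay above the 3 PT values.

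The second let-7 region lay between Mirlet7c-2 and Mirlet7b, 509 bp past the end of the Mirlet7c-2 hairpin and 31 bp before Mirlet7b, inside the lncRNA gene Lncppara and 27.62 kb from Ppara (chromosome 15, 85707206 to 85707288). Its percentiles were 88.47, 95.21 and 90.34 in PT and 78.13, 79.54 and 30.21 in EL, so all PT values lay above all EL values, unlike the let-7 region on chromosome 13. The region 7748 bp downstream of Mir34a had 54.5, 64.07 and 61.63 in PT and 91.1, 98.05 and 91.59 in EL, with no overlap. At Mir22, regions lay 3118 and 1289 bp upstream. The first had 50.22, 9.057 and 70.64 in PT and 76.2, 92.16 and 81.67 in EL, with no overlap. The region 4645 bp upstream of Mir183, also 257 bp from the host gene Mirc35hg, had 76.11, 92.8 and 87.24 in PT and 88.62, 80.96 and 51.86 in EL, and its groups overlapped.

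Some of the regions lay close to each other. When regions at most 50 kb apart were chained, 314 stood alone and 109 (25.77%) fell into 37 stretches of 2, 9 of 3 and 2 of 4. The same share was not computed for other distal regions, so this is a description and whether the regions cluster was not tested. The stretches with the most regions were the interval between the hairpins of Mir181d and Mir23a on chromosome 8 and that around Malat1 and Neat1 on chromosome 19. In the first, the 4 regions had mean percentiles of 36.11, 93.79, 67.18 and 75.5 in PT and 63.23, 97.2, 92.48 and 97.35 in EL, in order along the chromosome. The first of them lay 4533 bp upstream of Mir181d and 4359 bp from the nearer miRNA gene Mir181c. The last lay 7644 bp upstream of Mir23a. Malat1 and Neat1 are abundant nuclear lncRNAs, Neat1 being the scaffold of paraspeckles. Of the 4 regions there, the nearest lay 1019 bp from Malat1 and had 63.69, 86.67 and 90.37 in PT and 94.55, 98.45 and 92.42 in EL. Another lay inside Neat1 and had 9.082 and 54.6 in PT replicates 2 and 3 and 57.89 and 30.21 in EL replicates 2 and 3.

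**Figure D4:**
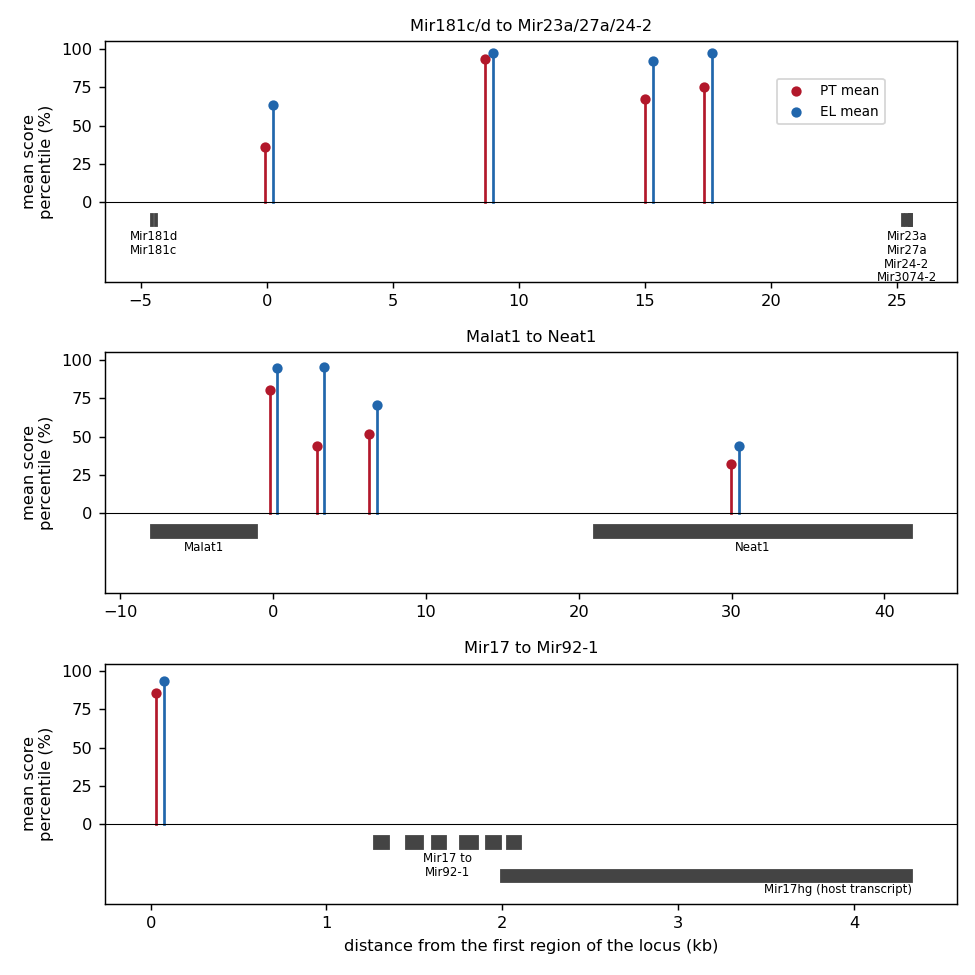
Mean score percentile (%) in PT (red) and EL (blue) of each region at 3 loci, over the libraries with a summit there, against distance (kb) from the first region of the locus. Dark bars are annotated non-coding genes and hairpins. EL means lie above PT means at all 9 regions, as EL percentiles did in general (median PT minus EL of -10.37 points over the 1573 regions of any position found in all 6 libraries), from 93.79 in PT and 97.2 in EL at the second region of the top map to 43.99 in PT and 95.81 in EL at the second region of the middle map.

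The genes with the most regions nearest to them were Irf2bp2, which encodes a corepressor that binds the interferon regulatory factor IRF2, with 6, and its relative Irf2bpl, with 4. The 6 at Irf2bp2 lay on both sides of it, from 21.6 to 165.6 kb away. The region 141.8 kb away had 14.01, 41.91 and 54.15 in PT and 91.57, 94.52 and 91.07 in EL. The region 21.91 kb away had 32.34, 71.46 and 89.97 in PT and 55.89, 18.7 and 33.99 in EL, and its groups overlapped, while those of the region 141.8 kb away did not. Ephb3, Esp38 and Zfp36l2 had 3 regions each. By chromosome, 39 regions (9.22%) lay on chromosome 17, which held 5.025% of all distal regions between genes and 5.509% of shared regions. Without the 3 regions at the ribosomal RNA copy, 420 regions were left.

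The nearest genes were also set against lists of pathway genes, gene families and markers of cell types. Of 15 lists with 421 different symbols, the nearest gene was in any list for 27 of the 423 regions (6.383%), against a background of 8.48% over all distal regions between genes. No list was tested, and the counts are read only against their background. The list of AP-1, Myc and immediate early genes had the most, 7 regions (1.655%, background 1.2%). They lay near Ier5 in 2 cases and near Fosb, Myc, Klf9, Mycn and Klf6. The Fosb region, 9.991 kb from the gene of this AP-1 subunit, had 60.23, 73.67 and 83.97 in PT and 76.3, 92.89 and 83.5 in EL. Wnt pathway genes had 3 (0.709%, background 0.783%), the receptor genes Fzd8 and Fzd7 and the ligand gene Wnt7b. The Fzd7 region had 92.34, 74.34 and 90.44 in PT and 28.52 and 53.96 in EL replicates 1 and 2. TGF-beta and BMP genes had 2 (background 0.892%), at the inhibitory Smad genes Smad6 and Smad7. Polycomb and chromatin regulators had 3 (background 0.479%). The one of these near Cbx8, a Polycomb subunit gene, had 31.45, 6.501 and 74.81 in PT and 67.19, 57.03 and 20.95 in EL, and the groups overlapped.

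The Sox and Fox list had 3 (Foxk1, Foxd2 and Sox11; background 1.09%) and the homeobox list 2 (Dlx4 and Dlx2; background 0.74%). ERBB and MAPK genes had 1 (background 0.74%). That region lay 86.66 kb from Nrg1, the gene of a ligand of ERBB receptors, with 93.82, 95.36 and 94.15 in PT and 79.29, 90.78 and 65.95 in EL, so all 3 PT values lay above the 3 EL values. Dormancy genes had 1, at Cdkn1a (background 0.479%), and epithelial genes 1, at Krt8 (background 0.196%). The lists of epithelial to mesenchymal transition and of mammary luminal genes had none, against backgrounds of 1.2% and 0.218%. Of the markers of other cell types, fibroblast genes had 1 region, near Col6a2 (background 0.305%), and endothelial genes had 3, near the VEGF receptor gene Flt1, Egfl7 and Pecam1 (background 0.174%). Leukocyte and lung epithelial genes had none, against 0.131% and 0.0653%. The nearest gene itself carried a shared region within 1 kb of a boundary for 70 of the 423 (16.55%, background 15%). Per library this share was 16.93%, 15.87% and 16.59% in PT and 17.04%, 16.55% and 16.19% in EL, against 18.32%, 17.09% and 18.43% of the other distal summits in PT and 15.64%, 14.56% and 14.72% in EL. The difference averaged 0.0650 ± 1.72 percentage points (SD, n = 6; exact paired permutation p = 0.875, adjusted p = 0.938). Here too the same regions recur in the 6 libraries, so the values are not independent.

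Libraries of the same group ordered the regions more alike than libraries of different groups. Among regions found by both libraries of a pair (262 to 404), the rank correlation of their scores was 0.687 to 0.734 for pairs within PT, 0.763 to 0.845 within EL and 0.371 to 0.481 between groups. These are descriptions across regions of the same lists, whose depth is unknown. Of the 214 regions in all 6 libraries, all 3 PT percentiles lay above all 3 EL percentiles in 18 (8.411%), against a background of 4.13% of the 1573 regions of any position found in all 6 libraries. All 3 EL percentiles lay above all 3 PT percentiles in 68 (31.78%), against a background of 36.5%. The median PT minus EL difference was -7.71 points in the 214 regions and -10.37 in the 1573. EL lists were longer, and in lists cut to the length of the shortest, with 187 regions left by the rule, 107 of them were in all 6 libraries, 23 with PT above (21.5%, background 14.1% of 996 regions of any position) and 19 with EL above (17.76%, background 18%). With 1 library left out, where fewer values must be ordered, PT lay above in 29, 31 and 32 regions without PT replicate 1, EL replicate 2 and EL replicate 3, and EL above in 108 without PT replicate 1.

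**Figure D5:**
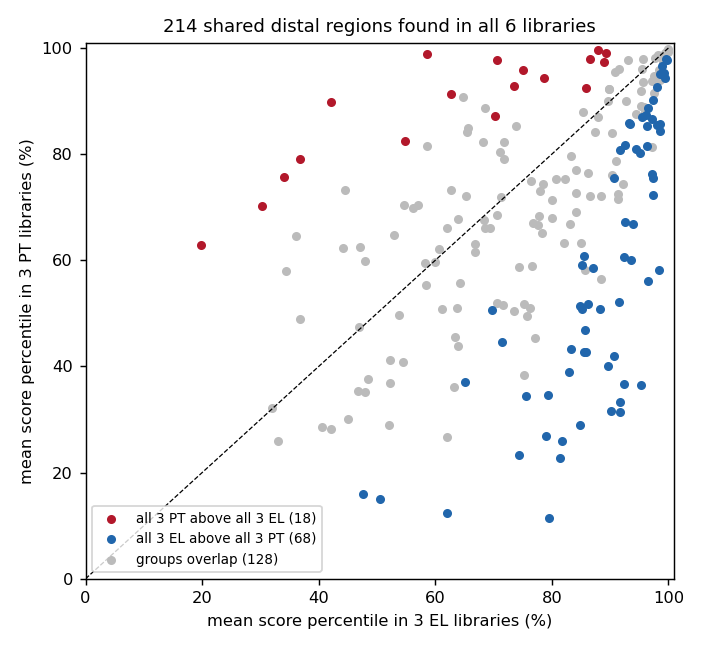
Mean score percentile (%) over 3 PT libraries (vertical) against 3 EL libraries (horizontal) for the 214 shared distal regions found in all 6 libraries. Red points are the 18 regions with all PT values above all EL values, blue points the 68 with all EL values above all PT values, and the dashed line marks equal means.

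Among regions found in all 6 libraries whose groups did not overlap, those with the largest difference in favour of PT lay 17.69 kb from 4930432M17Rik, in the gap shared with the tissue factor gene F3, and near Pde10a, Secisbp2l, the alpha-actinin gene Actn1 and Klhdc7a. The first (chromosome 3, 121700669 to 121700724) had 80.81, 95.58 and 93.02 in PT and 34.8, 70.53 and 20.95 in EL, a difference of 47.71 points. The Pde10a region (chromosome 17, 8505878 to 8505981), near a cyclic nucleotide phosphodiesterase gene, had 62.37, 60.79 and 65.32 in PT and 21.73, 13.33 and 24.52 in EL. The Klhdc7a region (chromosome 4, 139978955 to 139979026) had 98.93, 99.38 and 98.48 in PT and 78.13, 84.95 and 12.71 in EL. In this last case EL replicate 3 stood far below the other libraries.

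In favour of EL, the largest differences among regions found in all 6 libraries lay near Uaca, Notch1, Sgpp1, Myc and Galnt12. The Uaca region (chromosome 9, 61013131 to 61013264) lay 132.7 kb from the gene, inside the lncRNA gene Gm51680, with 6.593, 0.447 and 27.35 in PT and 80.33, 79.97 and 78.28 in EL, a difference of -68.07 points. The region 22.12 kb from the receptor gene Notch1 (chromosome 2, 26525941 to 26526056) had 8.595, 3.102 and 82.71 in PT and 91.41, 95.27 and 88.41 in EL, with PT replicate 3 close to the EL libraries. The region at Pvt1, 47.49 kb from Myc, had 15.08, 13.03 and 40.38 in PT and 93.9, 89.23 and 61.28 in EL. The region 12.66 kb from Sgpp1, a sphingosine-1-phosphate phosphatase gene, had 28.17, 41.44 and 39.76 in PT and 93.9, 97.79 and 94.02 in EL. These were chosen for their differences and carry no test.

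Summits at most 200 bp apart were merged by the rule, which bounds the distance between summits of a region for all pairs of libraries alike. The median distance between summits of a pair of libraries averaged 38.67 bp for pairs within PT, 32.33 bp within EL and 37.56 bp between the groups. Pairs between groups exceeded pairs within groups by 2.06 bp (two-sided exact permutation test, p = 0.1, no smaller value being possible; adjusted p = 0.175), a difference that did not pass and was -0.0833 bp without EL replicate 3.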

How the data were processed

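The authors deposited 1 list of summits per ZFP281 library, 3 PT and 3 EL, with a 1 bp position and a score. The authors' score was taken to be a −log10 q-value from its values, all above 1.3 in each list. Per the submitters' processing notes, reads were handled with Bowtie2 2.3.4.3 and Picard on mm10. The peak caller is not given in the sources used here, nor is any use of the inputs. Reads were paired and 150 bp long, per the labels' protocols. Read depth is unknown.

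Positions are 1-based. Distances run to the start or end of 21887 protein-coding and 28056 other annotated genes of a RefSeq table (GRCm38.p6). A library's percentile in a region is that of its highest-scoring summit. The share, distance, score and offset tests were exact permutation tests, with sign flips over 6 libraries or 3 against 3 labels, adjusted by the Benjamini-Hochberg method over 7 tests. Python 3.11.15, pandas 2.3.3 and scipy 1.17.1 were used, and the steps were tested on simulated data.

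The members, lists, tests and alternatives were chosen with earlier results of these data known. Named regions were the 10 with the highest lowest percentile, the 5 with the largest difference each way among regions in all 6 libraries whose groups did not overlap, the 5 farthest from genes, up to 4 per gene list, those in the 3 largest stretches, the 3 on each side of 5 kb, 5 at non-coding genes and the 3 widest. Stretches tied in size made the stretch set longer, and not all are named. Some regions that the rule names are left out of the text. Regions at miRNAs, at well-known lncRNAs, at Irf2bp2 and near Zfp281 were chosen after their values were seen. GC content and motifs of the regions themselves, planned for a genome of this build, were not analysed here. They were counted in RefSeq promoter windows only.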

Additional observations from a re-analysis of the deposited data

Results flagged for a closer look

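The share of regions whose nearest gene carries a shared boundary region, set against the other distal summits between genes, pointed in opposite directions in the groups. It was -1.40, -1.21 and -1.85 percentage points in PT replicates 1, 2 and 3 and 1.40, 1.98 and 1.47 points in EL replicates 1, 2 and 3, a PT minus EL difference of -3.101. An exact permutation test of 3 against 3 libraries, run after the pattern was seen, gave p = 0.1 (two-sided), the smallest it can give. The shares of the shared regions themselves averaged 16.46% in PT and 16.59% in EL, and those of the other distal summits 17.95% in PT and 14.98% in EL. Summits on sequences other than chromosomes 1 to 19, X and Y were in no comparison. There were 2 of them in PT replicate 3 and 1, 3 and 4 in EL replicates 1, 2 and 3.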

How the results depend on the processing

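None of the 7 tests passed an adjusted p of 0.05, in the reported setting or in any alternative run, where the lowest adjusted p was 0.0547 (exact permutation tests). Direction held for the distance (-21.4 to -2.91 kb), the boundary gap (-7.69 to -1.45 points) and the share at non-coding genes (2.10 to 9.99 points). Merging within 50 bp gave 0.756 points against regions inside genes, -0.192 points for nearest genes with a boundary region, and 11 and 42 regions with PT above and EL above. A score of at least 5 gave 1.22 points against regions inside genes. A score of at least 10 gave 167 regions, 0.961 points, and 9 with PT above and 27 with EL above. Equal list lengths gave 187 regions and 19 with EL above. Distances over 2, 10 and 50 kb gave 0.918, 0.578 and 2.26 points against regions inside genes. The nearest-gene difference was -0.0344 points over 2 kb and -1.35 points over 10 kb, and over 50 kb there were 112 regions, 6 with PT above and 16 with EL above. With all annotated genes 214 regions were left, 22 with EL above, and the share at non-coding genes could not be run. A summit in all 6 libraries gave 214 regions, 0.131 and -0.731 points, and 1 library per group gave 950 regions. Autosomes alone gave 0.240 and -0.452 points. For the nearest-gene difference, a boundary within 500 bp gave -0.668 points and summits above the percentile of 50, an alternative added after seeing the data, gave -1.683 points. The cause of these changes was not tested.

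With each library left out in turn there were 273 (without PT replicate 3) to 398 regions, -0.787 to 1.365 points against regions inside genes, -0.4365 to 1.263 points for the nearest-gene difference and -0.0833 to 4.5 bp for the summit offset. PT lay above EL in 19 to 32 and EL above PT in 68 to 108 regions, numbers that can grow because fewer libraries must agree. The share at non-coding genes was 8.02 points without EL replicate 2. The correlation of deviations was 0.272, -0.0019 and 0.123 for PT and EL libraries of the same replicate number. It was -0.211 to 0.0862 for those of different numbers. Whether the replicate numbers pair the libraries was not tested. With a replicate block the offset of 2.06 bp and the gap difference of 3.23 points each had an adjusted p of 0.35 in the exact permutation test. Unknown depth limits all comparisons of scores, and 3 libraries per group limit p to 0.1.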
